A study of Mus musculus with 8 samples.

Results

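The 4 saccharin control libraries of a study of neurons that express the mu opioid receptor (MOR) in the paraventricular thalamus (PVT) describe the RNA pulled down with the tagged ribosomes of these cells when no morphine was given, here called the baseline translatome. They were 4 of the 8 libraries in the series and were chosen by their treatment label alone, and the other 4 came from mice that drank morphine. The method was translating ribosome affinity purification followed by sequencing (TRAP-seq), in which ribosomes that carry a tagged protein are pulled out of a tissue lysate with an antibody and their mRNA is sequenced. The question asked of the control libraries was which transmitter, peptide, receptor and channel genes the tagged neurons translate, at what level, and how far 4 libraries of the same kind differed.

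All mice carried the genotype OPRM1cre X EGFP-L10a on a C57Bl/6J background and were 8 to 12 weeks old at the start, and the control mice drank 0.2% saccharin for 11 days. The sample labels call this group control drinking water. Cre was placed in the Oprm1 locus behind the receptor's own coding sequence, so the EGFP-L10a ribosomal protein appears in cells in which Cre has acted at any time, including cells that expressed Oprm1 only earlier in life. By the study's methods each library pooled 2 gross dissections aimed at the PVT from mice of the same sex, which makes the pool the replicate. Control 1 and control 2 were labelled male, and control 5 and control 6 were labelled female. The dissections were taken during the lights-on period and were not restricted to 1 nucleus. No library of the unpurified lysate was analysed here, so the levels are those of RNA in the pulldown, and RNA that came along from other cells or from the nucleus can be part of them.

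The PVT is a midline thalamic nucleus whose projection neurons release glutamate and which is known for its part in arousal, feeding and responses to drugs. In rodents these neurons are known to carry the calcium-binding protein calretinin and to receive dense peptide input from hypothalamus and brainstem, including orexin. The MOR is a receptor coupled to inhibitory Gi/o proteins. When an opioid binds it, adenylyl cyclase is inhibited, GIRK potassium channels open and presynaptic calcium channels close, until kinases and arrestins desensitize the receptor.

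The control libraries held between 37081348 and 43311793 counts with 1 transcript taken per gene, and the whole table listed 18939 genes. At this depth 18400 genes had a count in at least 1 control library, and 12422 genes (65.6%) reached 1 CPM (a count scaled to the total of its library) in all 4. A core of 1037 genes held 50% of the counts, 45 genes were at 1000 CPM or more in all 4 libraries, and protein-coding genes took 99% of the counts. Levels of different genes are compared below as CPM per kilobase of transcript (CPM per kb), which removes the gain in counts of a long transcript. The median gene stood at 3.44 CPM per kb, the 90th percentile at 41.3 and the 99th percentile at 216 CPM per kb.

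1 label did not match the counts. The library labelled female control 5 held 250 counts of Kdm5d, 254 of Eif2s3y, 362 of Uty and 1206 of Ddx3y, all genes of the Y chromosome, and its CPM of these genes lay between 30.2% and 36.3% of the mean of the male control libraries. It also held 66 counts of Xist, the RNA that silences 1 X chromosome in female cells, while both male control libraries held 0 and control 6 held 89. Control 6 had 0 counts of Kdm5d, Eif2s3y and Uty and 2 counts of Ddx3y. Control 5 is therefore written as the library labelled female wherever sex is at issue. The source of its Y-linked counts, in a library stated to pool mice of the same sex, was not tested.

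The 15 genes with the highest level included genes of transmitter release, calmodulin genes, metabolic enzymes and genes of other roles. Snap25, a SNARE protein of the synaptic vesicle fusion machinery, stood at 1634, 1687, 1974 and 1477 CPM per kb in controls 1, 2, 5 and 6. Vamp2, the vesicle SNARE, stood at 1312, 1300, 1290 and 1330 CPM per kb, so its 4 libraries were closer to each other than those of Snap25. Gnas, the stimulatory G protein alpha subunit, averaged 1396 ± 54.3 CPM per kb (SD, n = 4); its 2396 CPM became 11780 CPM when counts were summed over its transcripts, which share reads. Others among the 15 highest were Ndrg4, Aldoa (a glycolytic enzyme), Calm2 and Calm3 (which both encode calmodulin), Actb, Cplx1 (a complexin, which clamps fusion), Uchl1, Atp5b, Ywhag, Snrpn and Snurf. Snurf was listed at 10951 ± 411 CPM per kb, but it shares its reads with Snrpn (2365 ± 88.7 and 2366 ± 89.0 CPM), and its listed transcript is short, so this value is uncertain. Within each of the 15 genes the coefficient of variation over the 4 libraries lay between 1.32% and 19.9%, with a median of 6.36%. Of these 15 genes, 13 were again among the 15 highest in the 4 morphine libraries, and the lowest rank of any of them there was 19. When the longest annotated transcript of each gene was used for its length, 13 of the 15 kept a place among the highest 15, while Snap25 moved from rank 2 to 17 (734 CPM per kb) and Gnas from rank 3 to 23 (607 CPM per kb).

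**Figure D1:**
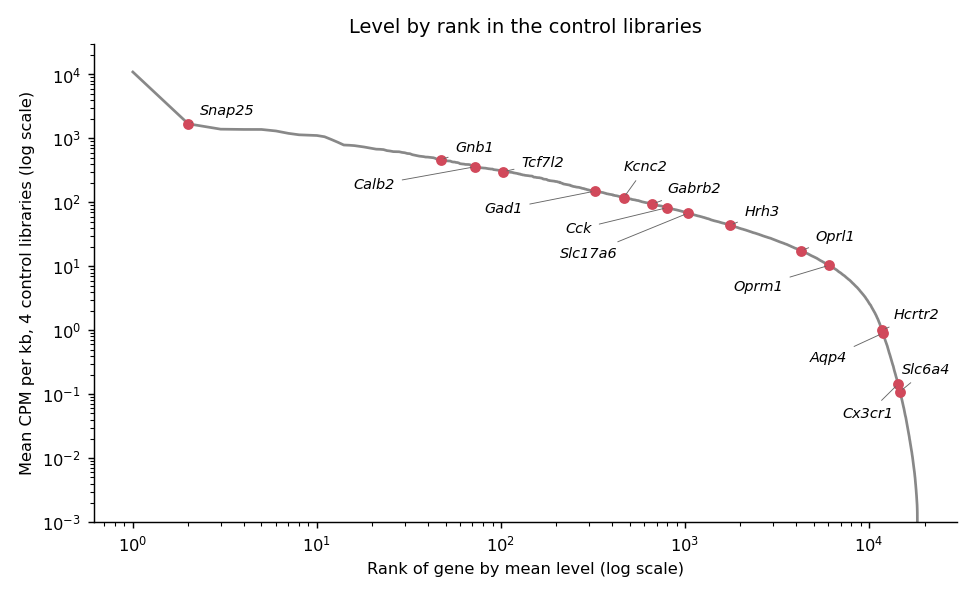
Mean level of every gene with a transcript length over the 4 control libraries (CPM per kb, log scale) against its rank (log scale), with named genes as points. Calb2, Tcf7l2 and Gad1 lie among the highest 324 genes, Oprm1 lies at rank 6076 and Hcrtr2 and Aqp4 lie near 1 CPM per kb.

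Several housekeeping genes that have near-identical copies elsewhere in the genome were listed at low levels. Gapdh was listed at 2.37 ± 0.29 CPM, Ppia at 2.93 ± 0.40, Tpt1 at 2.59 ± 0.54 and Rps29 at 0.57 ± 0.26 CPM (SD, n = 4), while Actb was at 2040 ± 205 and Eef1a1 at 776 ± 71.7 CPM; these genes were chosen after their values were seen. Rpl10a, the gene of the ribosomal protein that carries the tag, was at 10.6, 14.8, 17.4 and 16.1 CPM in controls 1, 2, 5 and 6. Rps3 (210 ± 8.15 CPM) and Tuba1a (706 ± 121 CPM), looked up with these genes, were not low. Whether copies lowered any of these counts was not tested, so the level and rank of Rpl10a and of such genes are uncertain.

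The midline thalamus list held 18 markers, of which 17 (94.4%) reached 1 CPM in all 4 libraries, against 65.6% of all genes. Some lists of other cell types passed at like shares, with 100% of oligodendrocyte, 90% of astrocyte and 88.9% of medial habenula genes. Microglial and vascular genes passed at 10% each, so the share alone does not name the tissue. Calb2, which encodes calretinin, led the midline thalamus markers with 377, 294, 297 and 473 CPM per kb in controls 1, 2, 5 and 6, at rank 72 of all genes. Tcf7l2, a transcription factor of the developing and adult thalamus, followed with 335, 231, 355 and 285 CPM per kb. These ranges overlapped, and Calb2 was the higher of the pair in 3 of 4 libraries, while Tcf7l2 led with counts summed over transcripts. Zic1, a transcription factor, stood apart below both at 154 ± 44.0 CPM per kb. Calb1 (calbindin, 71.5 ± 9.15), Gbx2 (a homeobox factor that specifies thalamic neurons, 32.1 ± 4.38), Zic4 (27.8 ± 10.9), Lef1 (25.5 ± 5.99), Foxp2 (20.3 ± 3.48) and Prox1 (18 ± 2.63 CPM per kb) were all above the median gene. The summed level of the list was lowest in control 2 (932 CPM per kb) and between 1099 and 1295 CPM per kb in the other 3 libraries.

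Other markers of this list were low. The orexin receptors Hcrtr1 and Hcrtr2 averaged 1.18 ± 0.62 and 1.00 ± 0.12 CPM per kb, with Hcrtr1 the higher in 2 of 4 libraries. Galr1, a galanin receptor, averaged 2.66 ± 0.87 CPM per kb. Col12a1, a collagen, averaged 0.23 ± 0.05 CPM per kb, at the percentile 27.1 of all genes.

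Genes of glutamate and of GABA neurons were present together, and the enzymes that make GABA were the higher. Gad1 encodes the larger form of glutamate decarboxylase and stood at 138, 121, 192 and 148 CPM per kb in controls 1, 2, 5 and 6. Gad2, the smaller form, stood at 120, 83.5, 122 and 106 CPM per kb. Slc17a6, the vesicular glutamate transporter VGLUT2 of subcortical neurons, stood at 64.2, 77.8, 61.6 and 68.6 CPM per kb. Both Gad genes were above Slc17a6 in 4 of 4 libraries with no overlap of the ranges, by a median of 2.16 times for Gad1 and 1.71 times for Gad2. With 4 libraries a paired exact test cannot reach a P value of 0.05, so orders are given as the number of libraries that show them.

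The transporters gave another order than the enzymes. Slc32a1, the vesicular GABA transporter that loads vesicles in GABA and glycine neurons, stood at 18.3, 36.4, 18.2 and 18.7 CPM per kb, high in control 2 and close together in the other 3. Slc17a6 was above it in 4 of 4 libraries, by a median of 3.45 times, and the ranges did not overlap. Gad1 was 7.74 times Slc32a1 at the median, between 3.33 times in control 2 and 10.6 times. Slc17a7, the VGLUT1 of cortical neurons, stood at 26.7, 39.4, 33.1 and 65.6 CPM per kb and came close to Slc17a6 in control 6 alone. Slc17a6 was the higher in all 4 control libraries, but in only 1 of the 4 morphine libraries.

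Genes of other transmitters differed in level, and Th, Ddc and the dopamine transporter gene were highest in control 5. Chat, the enzyme of acetylcholine synthesis, averaged 1.29 ± 0.11 CPM per kb, and the glycine transporter Slc6a5, the histamine enzyme Hdc and the serotonin genes did not reach 1 CPM in all 4 libraries. Th, the rate-limiting enzyme of catecholamine synthesis, stood at 9.32, 11.1, 38.7 and 5.97 CPM per kb in controls 1, 2, 5 and 6. Ddc, the next enzyme, stood at 22.8 CPM per kb in control 5 and between 6.18 and 10.04 CPM per kb in the others. The dopamine transporter Slc6a3 stood at 0.23, 2.24, 7.20 and 0.09 CPM per kb. All 3 genes were highest in control 5 and lowest in control 6. Aldh1a1, an aldehyde dehydrogenase that marks a subset of dopamine neurons, stood at 0.81, 3.92, 15.1 and 1.00 CPM per kb and followed the same order of controls 5, 2 and then the other libraries as Slc6a3. Of the other catecholamine genes, the vesicular transporter Slc18a2 was also highest in control 5 (2.57 CPM per kb), while Dbh, Pnmt and Slc6a2 were at 0.17 CPM or less in every library. The source of these reads was not tested.

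**Figure D2:**
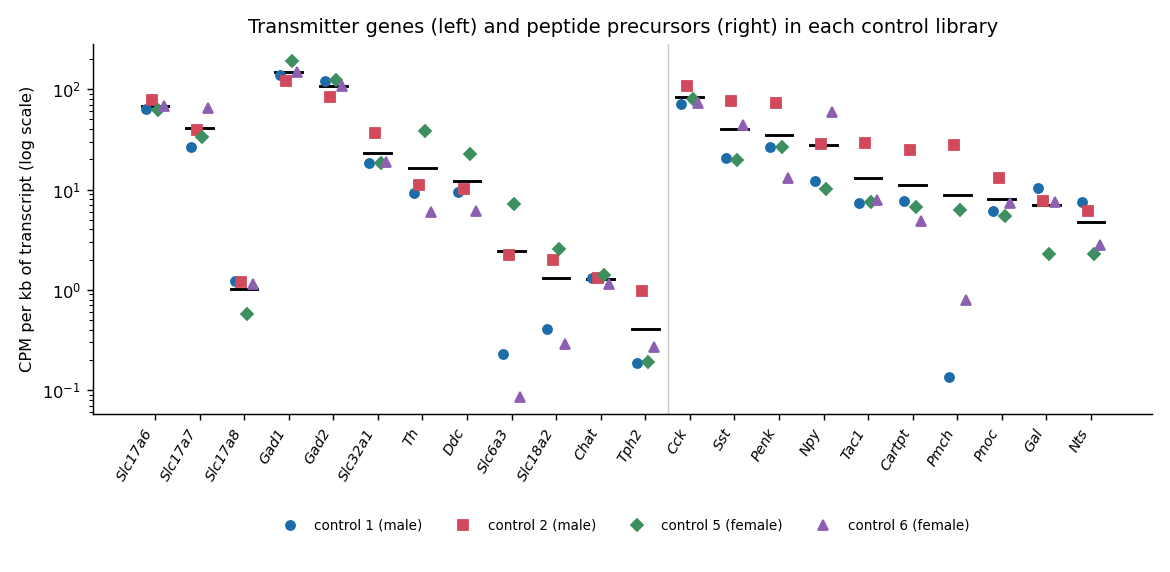
Level of transmitter genes (left) and peptide precursors (right) in each control library (CPM per kb, log scale), with a bar at the mean of the 4. Gad1 and Gad2 lie above Slc17a6 in every library, Th and Slc6a3 are highest in control 5, and most peptides are highest in control 2.

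Among neuropeptide precursors, cholecystokinin led. The list held 46 genes in the table, and 15 of them (32.6%) reached 1 CPM in all 4 libraries, against 65.6% of all genes. Cck stood at 71.3, 107, 79.7 and 73.5 CPM per kb in controls 1, 2, 5 and 6. Sst, which encodes somatostatin, stood at 20.5, 76.1, 19.6 and 43.6 CPM per kb. Cck was above Sst in 4 of 4 control and 4 of 4 morphine libraries, although the ranges overlapped across libraries. Penk, the enkephalin precursor and so a source of MOR ligand, stood at 26.3, 72.7, 26.7 and 13 CPM per kb. Npy was highest in control 6 at 59.6 CPM per kb and lay between 10.1 and 28.6 CPM per kb elsewhere. Tac1, the substance P precursor, stood at 29.0 CPM per kb in control 2 and between 7.34 and 7.94 CPM per kb in the other 3 libraries.

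Many peptide genes were highest in control 2, as were many receptor and channel genes. Of the 46 precursors, 29 had their highest level in control 2, as had 10 of the 11 granin and peptide-processing genes, against 32.4% of the 18400 genes with a count. Of the 15 precursors at 1 CPM or more in all 4 libraries 12 were highest there, against 32.0% of such genes, and of the other 31 precursors 17 were, against 33.3%. The share was of like size for some other neuronal lists. Highest in control 2 were 39 of 63 ionotropic receptor genes, 33 of 52 metabotropic receptor genes and 62 of 96 voltage-gated channel genes with a count. In other neuronal lists the share was lower. Highest there were 14 of 42 genes of the MOR signalling list, 10 of 23 transmitter genes, 3 of 18 midline thalamus genes and 0 of 11 telencephalic pyramidal genes. Of 8 striatal projection neuron markers, 6 were also highest in control 2. Pmch, the melanin-concentrating hormone precursor made in the lateral hypothalamus, was at 28 CPM per kb in control 2, at 6.26 in control 5 and below 1 CPM per kb in controls 1 and 6. The summed level of the precursors was 464 CPM per kb in control 2 and between 197 and 276 CPM per kb in the other libraries, and without control 2 its mean went from 287 to 228 CPM per kb.

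Genes that store and process peptides were present at high level, all 11 of them at 1 CPM or more in every library. Cpe, the carboxypeptidase that trims peptide ends in granules, stood at 135, 221, 139 and 148 CPM per kb. Scg2, a granin that helps to form dense-core vesicles, stood at 48.0, 106, 46.2 and 49.7 CPM per kb. Pcsk2, a proprotein convertase that cleaves precursors, stood at 57.7, 66.4, 55.3 and 68.1 CPM per kb, with no such gap for control 2. Chgb, another granin, averaged 12.8 ± 3.99 CPM per kb and Pcsk1, the sister convertase of Pcsk2, averaged 2.32 ± 0.82 CPM per kb.

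The promoters of these peptide genes are shown because several hold the cAMP response element, a motif bound by CREB, and cAMP is the messenger that the MOR lowers through Gi/o. The palindrome TGACGTCA, which reads the same on both strands, was searched in the RefSeq promoters of GRCm38.p6, from 250 bases before to 50 bases after each start, and 588 of 32851 promoters (1.79%) held it. It was found in 3 of the 9 granin and processing genes with a promoter in the table (Scg2, Chgb and Pcsk1), in 3 of 35 precursors (Sst, Cartpt and Ucn) and in 2 of 14 immediate early genes (Btg2 and Dusp1). The 28 bases around the element are given 5′ to 3′ on the gene's strand, with the element in capitals.
Scg2, chr1:79440077-79440104, minus strand, first base at -68 from the start: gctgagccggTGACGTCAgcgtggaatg
Chgb, chr2:132781560-132781587, plus strand, first base at -72: ggctgctccgTGACGTCAgggctgagcg
Pcsk1, chr13:75089769-75089796, plus strand, first base at -78: caggtagatcTGACGTCAagagatggct
Sst, chr16:23890875-23890902, minus strand, first base at -48: cctccttggcTGACGTCAgagagagagt
Cartpt, chr13:99900778-99900805, minus strand, first base at -112: cggcgggcatTGACGTCAaacggcagcg
Of the 5 genes shown, Scg2 was the highest at 62.4 and Pcsk1 the lowest at 2.32 CPM per kb, and all 5 were highest in control 2. Ucn lay far lower, between 0 and 0.69 CPM in the 4 libraries, while Btg2 lay between 9.97 and 32.3 CPM and Dusp1 between 51.0 and 63.8 CPM. The match describes the letters in the promoter and says nothing of binding.

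Oprm1 itself was present at a moderate level. The gene lies at chr10:6758593-7038209 in GRCm38.p6 and overlaps Ipcef1. It stood at 13.3, 12.1, 6.92 and 9.30 CPM per kb in controls 1, 2, 5 and 6, a mean of 10.4 ± 2.85 CPM per kb at rank 6076 of 18834 genes with a length. It was higher in both male libraries than in both libraries labelled female. Oprl1, the nociceptin receptor, stood at 18.1, 21.7, 15.5 and 15.1 CPM per kb, above Oprm1 in 4 of 4 control and 4 of 4 morphine libraries with no overlap in the controls. Oprk1 and Oprd1, the kappa and delta receptors, averaged 1.65 ± 0.20 and 1.11 ± 0.42 CPM per kb. Oprm1 was between 4.96 and 8.35 times Oprk1 in the 4 libraries. Among the precursors of opioid peptides, Penk (34.7 ± 26.2 CPM per kb) was above Pnoc (8.01 ± 3.49), which encodes nociceptin, and above Pdyn (1.52 ± 0.80) and Pomc (0.98 ± 0.70), the dynorphin and endorphin precursors.

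Some signalling genes downstream of the MOR stood far above the receptor and others below it. Of 41 such genes, 39 reached 1 CPM in all 4 libraries, against 65.6% of all genes, and 23 were above Oprm1 in each of the 4. The summed level of the list with Oprm1 varied by 3.27% (coefficient of variation), and Gnb1 alone made 22.4% of it. Gnb1, a G protein beta subunit, stood at 469, 451, 450 and 488 CPM per kb, and Gnao1, the Go alpha subunit, stood at 293, 227, 272 and 285 CPM per kb. Gnao1 was 3.83 times Gnai1 at the median, and 2.04 times with the longest annotated transcripts. Rgs4, which speeds the shut-off of Gi/o proteins, stood at 158, 158, 216 and 158 CPM per kb, so that 3 libraries were level and control 5 was above them. Rgs16 followed among the 10 RGS genes at 71.4 ± 10.4 CPM per kb. Adrbk1, the receptor kinase GRK2, averaged 93.2 ± 6.40 CPM per kb (Grk6 led the kinases with counts summed over transcripts), and Arrb1, encoding beta-arrestin 1, averaged 74.6 ± 6.47 CPM per kb against 25.4 ± 2.76 for Arrb2.

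Of the channels that the MOR acts on, Kcnj9 (GIRK3) led the GIRK genes at 20.3, 26.4, 19.3 and 20.4 CPM per kb and was above Kcnj3 (GIRK1) in 4 of 4 libraries, by a median of 1.84 times. With counts summed over transcripts, which counts a shared read on each of them, Kcnj6 (GIRK2) led instead. Cacna1a, the P/Q-type calcium channel, averaged 9.94 ± 1.65 CPM per kb and was above Cacna1b, the N-type channel, in 4 of 4 libraries. Of the adenylyl cyclases, Adcy5 (29.4 ± 8.11 CPM per kb) and Adcy1 (28.8 ± 3.22) could not be ordered, since Adcy5 was the higher in 2 of 4 control and 0 of 4 morphine libraries.

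Receptors for classical transmitters were led by the GABA-B receptor. Gabbr1 stood at 148, 190, 133 and 156 CPM per kb and alone made 30.5% of the summed level of 52 metabotropic receptor genes. Of these 52 genes, 40 (76.9%) reached 1 CPM in all 4 libraries, against 65.6% of all genes. Gabbr2, the partner subunit of Gabbr1, averaged 42.9 ± 6.48 CPM per kb. Hrh3, the histamine autoreceptor and heteroreceptor H3, stood at 46.5, 49.0, 37.1 and 42.5 CPM per kb and made 92.4% of the histamine receptor sum. Adora1, the inhibitory adenosine receptor, stood at 38.1, 46.2, 39.2 and 44.4 CPM per kb. Adora2a, which couples to Gs, stood at 3.62, 11.1, 7.33 and 1.39 CPM per kb, and Adora1 was above it by between 4.17 and 32.0 times.

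Receptors of the remaining classes were at moderate levels. Grm5, a metabotropic glutamate receptor, averaged 26.6 ± 4.14 CPM per kb. Htr2c led the serotonin receptors at 13.1, 21.6, 12.4 and 12.9 CPM per kb, and Htr7, at 13.2 ± 2.11, was the higher of the pair in 2 of 4 libraries. Drd2, the inhibitory dopamine receptor that marks part of the PVT, stood at 7.20, 13.5, 12.6 and 4.12 CPM per kb and was above Drd1a in 4 of 4 libraries. The summed striatal projection neuron markers had the same order of libraries, at 115, 189, 167 and 90.7 CPM per kb, as had Adora2a. The midline thalamus sum was lowest in control 2 (932) and highest in control 6 (1295 CPM per kb). Which cells the Drd2 reads came from was not tested. Adra1b (9.04 ± 2.09) and Cnr1 (the cannabinoid receptor CB1, 11.6 ± 2.70 CPM per kb) led the noradrenaline and cannabinoid receptors. Among the muscarinic receptors Chrm3 (3.98 ± 0.92) and Chrm4 (3.94 ± 1.83 CPM per kb) could not be ordered.

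Of 62 neuropeptide receptor genes, 38 (61.3%) reached 1 CPM in all 4 libraries, near the 65.6% of all genes. Oprl1 led them, and Adcyap1r1, the PACAP receptor, followed at 16.8, 20.7, 12.5 and 16.4 CPM per kb, with Oprl1 higher in 3 of 4 control libraries but in 1 of 4 morphine libraries, and lower with counts summed over transcripts. Oprm1 was the third. Galr2 had 0 counts in every control library. Of the 61 with a count, 37 were highest in control 2, against 32.4% of all genes with a count.

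Gabrb2, a GABA-A receptor subunit, led the ligand-gated channels with 1 transcript per gene, while Grin1 led when counts were summed over transcripts. Gabrb2 stood at 89.3, 102, 98.4 and 88.1 CPM per kb, in a list of 63 ionotropic receptor genes. Of these 63 genes, 42 (66.7%) reached 1 CPM in all 4 libraries, near the 65.6% of all genes. Gabrb2 was above Gabra4, the next gene, in 4 of 4 control and 4 of 4 morphine libraries. Gabra4, an alpha subunit of extrasynaptic receptors in thalamic relay cells, stood at 49.1, 53.1, 49.6 and 50.0 CPM per kb, close together in all 4. Glrb, the glycine receptor beta subunit, averaged 42.7 ± 12.5 CPM per kb. Among glutamate receptors Grin1, the obligatory NMDA subunit, averaged 39.5 ± 10.5, Gria1 (AMPA) 37.3 ± 7.47 and Grik5 (kainate) 30.4 ± 6.60 CPM per kb. Gria1 was above Gria2 in 4 of 4 libraries, by a median of 3.64 times. Grin2b was 3.22 times Grin2a at the median. Chrna4, the main partner of beta2 in brain nicotinic receptors, averaged 25.4 ± 4.32 CPM per kb.

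Kcnc2 (Kv3.2), a potassium channel that allows high firing rates, led the voltage-gated channels with 1 transcript per gene, but not with counts summed over transcripts. It stood at 119, 119, 123 and 113 CPM per kb in controls 1, 2, 5 and 6, with little spread. Kcna1 (Kv1.1) followed at 42.2, 59.6, 74.3 and 45.6 CPM per kb and was below Kcnc2 in 4 of 4 control and 4 of 4 morphine libraries; with the longest annotated transcripts the median ratio went from 2.23 to 1.3. Hcn2, the main thalamic pacemaker channel of the HCN family, stood at 34.8, 66.7, 46.5 and 35.5 CPM per kb, highest in control 2. Cacna1g (Cav3.1), the T-type calcium channel behind thalamic bursts, stood at 14.2, 19.3, 14 and 14.2 CPM per kb and was 2.73 times Cacna1i at the median. Kcnma1 (the BK channel, 34.2 ± 2.70) and Scn2a1 (Nav1.2, 25.9 ± 3.48 CPM per kb) led their families, although Scn8a led the sodium channels with summed counts. Of 99 genes in the table, 78 (78.8%) reached 1 CPM in all 4 libraries, against 65.6% of all genes. Kcna7, Kcnn4 and Kcnk7 had 0 counts in each library.

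**Figure D3:**
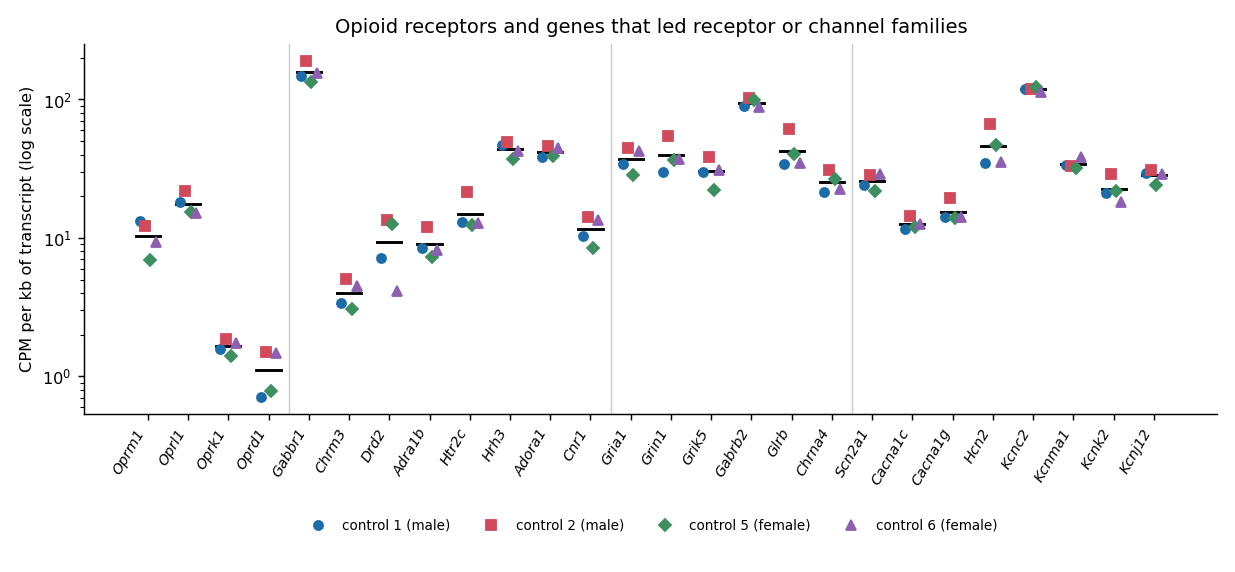
Level of the opioid receptors and of genes that led receptor or channel families in each control library (CPM per kb, log scale), with a bar at the mean. Gabbr1, Kcnc2 and Gabrb2 lie near 100 CPM per kb or above, Oprm1 near 10 and Oprk1 and Oprd1 between 0.71 and 1.87 CPM per kb.

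Activity and clock genes were both present at baseline. All 18 immediate early genes reached 1 CPM in the 4 libraries, against 65.6% of all genes. They were led by Jund (71.1, 86.6, 75.8 and 72.6 CPM per kb) and Egr1 (64.5, 64.4, 74.6 and 93.5 CPM per kb). Fos, a marker of recent neuronal activity, stood at 45.6, 44.7, 35 and 44.2 CPM per kb, low in control 5. Arc, which acts at active synapses, stood at 8.63, 14.1, 15.8 and 40.7 CPM per kb, highest in control 6. All 19 clock genes reached 1 CPM in all 4 libraries. Their leaders were the PAR bZIP output factors Hlf (119 ± 25.1) and Tef (109 ± 2.64) and the repressor Nr1d2 (76.2 ± 8.32 CPM per kb), with Tef ahead of Hlf when counts were summed over transcripts.

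Markers of other cell types were low in part and uneven in part. Microglial and vascular genes were near the floor, with 1 of 10 in each list at 1 CPM in all 4 libraries, and their summed levels lay between 3.76 and 8.95 and between 1.4 and 3.89 CPM per kb. Of 4 ependymal genes, 1 passed. The astrocyte sum lay between 135 and 226 CPM per kb, of which Aldoc made 75.5%, and 9 of 10 genes reached 1 CPM in all 4 libraries. Slc1a2, the glial glutamate transporter, averaged 27.0 ± 6.39 CPM per kb, S100b 11.1 ± 7.48 CPM per kb, and the defining astrocyte genes Gfap and Aqp4 averaged 1.87 ± 0.99 and 0.90 ± 0.67 CPM per kb. The medial habenula borders the PVT and is rich in MOR. Of its 9 markers in the table, 8 (88.9%) reached 1 CPM in all 4 libraries, against 65.6% of all genes. Tac2 stood at 14.2, 17.2, 5.56 and 14.4 CPM per kb, lowest in control 5, and Pou4f1, a habenular transcription factor, at 4.28, 3.85, 5.24 and 5.94 CPM per kb, lowest in control 2. The summed level of the 9 genes lay between 26.1 and 37.9 CPM per kb. Striatal projection neuron genes summed to between 90.7 and 189 CPM per kb, led by Ppp1r1b, and 6 of 8 of these genes were highest in control 2.

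3 sets of markers each stood highest in a particular library. All 10 oligodendrocyte genes were highest in control 5, and their sum was 47.0, 165, 454 and 289 CPM per kb in controls 1, 2, 5 and 6. Mbp, the myelin basic protein, stood at 14.9, 54.4, 170 and 101 CPM per kb. Of 11 genes of telencephalic pyramidal neurons, 10 were highest in control 6, and Tbr1, a cortical transcription factor, stood at 2.43, 1.98, 1.68 and 16.9 CPM per kb. All 13 choroid plexus genes were highest in control 6, and Ttr, the transthyretin of choroid epithelium, stood at 0.80, 11.2, 7.77 and 37.2 CPM per kb. Of all genes at 1 CPM or more, 27.6% were highest in control 5 and 19.2% in control 6, and of the other genes with a count, to which 7 of the 13 choroid plexus genes belong, 27.2% were highest in control 6. In such tissue-level pulldowns a larger number of cells of a type and more RNA per cell cannot be told apart.

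Control 2 stood apart in another way. It was highest for 6 of 8 striatal genes, whose sum was 189 CPM per kb there and between 90.7 and 167 CPM per kb in the other libraries, and for 9 of 10 microglial and 9 of 10 vascular genes. Of each of these last lists, 9 genes did not reach 1 CPM in all 4 libraries and 8 of the 9 were highest in control 2, against 33.3% of all such genes. Malat1, an RNA that stays in the nucleus, stood at 702, 2223, 493 and 1552 CPM in controls 1, 2, 5 and 6, and Meg3, another long noncoding RNA, at 88.4, 299, 83.0 and 114 CPM; both were chosen after their values were seen. The part of these RNAs and of the striatal genes in the peptide, receptor and channel levels of control 2 was not tested.

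**Figure D4:**
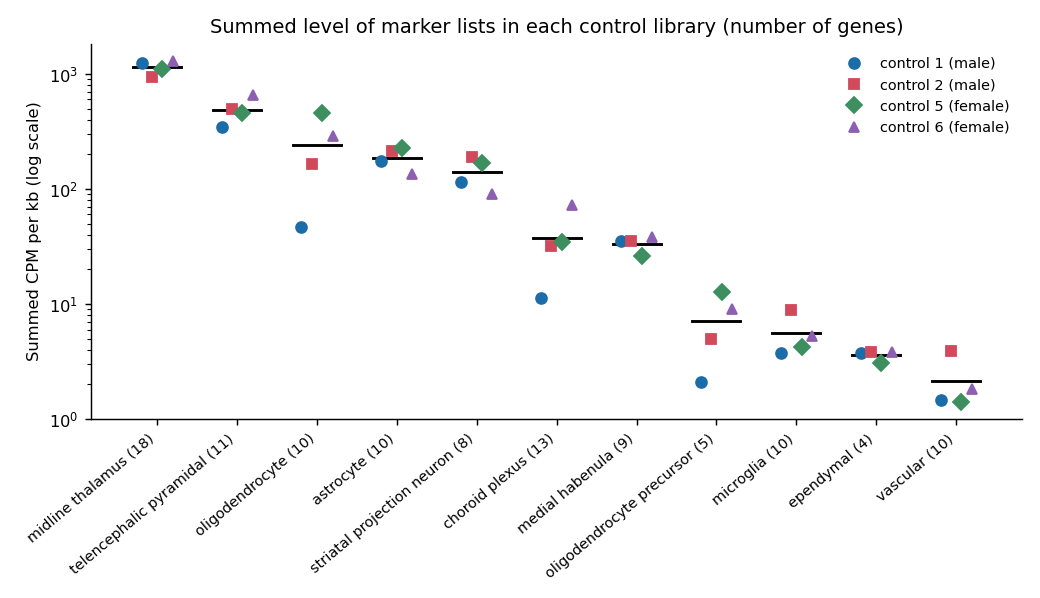
Summed level of each marker list in each control library (CPM per kb, log scale), with the number of genes of the list in the table in brackets and a bar at the mean. The oligodendrocyte sum runs from 47.0 in control 1 to 454 in control 5, while the midline thalamus sum stays between 932 and 1295 CPM per kb.

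Over 9306 genes with a mean of at least 10 CPM, the median SD of log2 CPM was 0.16 and the median coefficient of variation was 10.7%, against 2.26% from counting alone. Only 247 of these genes (2.65%) had an SD above 0.5 and 46 above 1. The 10 most variable were Ddx3y, Uty and Kdm5d of the Y chromosome, Ttr, Aldh1a1, the myelin genes Mobp and Cldn11, Cplx3 (a complexin), Trf (transferrin) and Gatm (creatine synthesis). Cplx3 stood at 0.60, 1.67, 3.38 and 12.2 CPM per kb and was highest in control 6, and Mobp stood at 2.75, 11.7, 49.9 and 31.1 CPM per kb and was highest in control 5. Among the 100 most variable genes, 8 were of the 10 oligodendrocyte markers. Of the 100, 44 were highest in control 5, against 27.6% of all genes at 1 CPM or more in all 4 libraries. The minimum of 10 CPM was set on the mean, so a gene could pass it through 1 high library. Aldh1a1 did so with 1.66, 8.05, 31.0 and 2.04 CPM in controls 1, 2, 5 and 6, and such tallies are no separate evidence. The common biological coefficient of variation fitted by edgeR was 20.5%, and 18.6% without control 2.

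**Figure D5:**
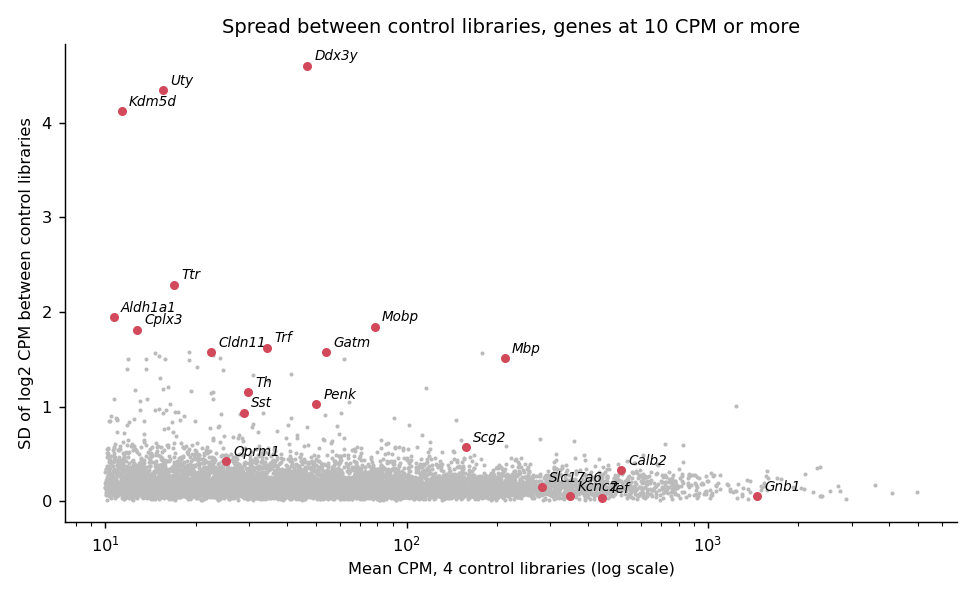
SD of log2 CPM between the 4 control libraries against mean CPM (log scale) for the genes with a mean of at least 10 CPM, with named genes as red points. Y-linked, choroid plexus and myelin genes lie at the top, and Kcnc2, Tef and Gnb1 lie at the bottom.

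Sex was the only labelled difference within the controls, and no gene passed the test between them. With edgeR (quasi-likelihood, Benjamini-Hochberg) 0 of 18400 genes (0%) were called between the libraries labelled female and the male libraries, at an adjusted P value threshold of 0.05. An unadjusted P value under 0.05 was reached by 690 genes (3.75%). DESeq2 called 58 genes (0.315%), 56 of them higher in the libraries labelled female, and limma-voom called 0, with 662 genes at an unadjusted P value under 0.05. The P values measure only the spread between these 4 pools. Xist had the lowest P value (adjusted P value 0.134 by edgeR with Benjamini-Hochberg adjustment), with means of 0 CPM in the male libraries and 1.98 CPM in the libraries labelled female. Without control 5, which carried the Y-linked counts, 12 genes were called, and without control 1, control 2 and control 6 the calls numbered 100, 78 and 6. Without control 1 most calls were higher in the male library (84 of 100), and without control 2 most were higher in the libraries labelled female (73 of 78).

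Genes with an unadjusted P value under 0.05 were found in several lists. 6 of 10 oligodendrocyte genes had an unadjusted P value under 0.05 by edgeR, all higher in the libraries labelled female, and 5 of 11 telencephalic genes likewise, against 3.75% of all genes. Of 46 peptide precursors 12 did so, 11 of them higher in the male libraries, of which control 2 is 1. Of 8 opioid genes 5 did so, all higher in the male libraries. Penk, Pdyn and Pomc are counted in both lists, and the Penk values of the male libraries and the libraries labelled female overlapped. Of 18 immediate early genes 7 had an unadjusted P value under 0.05 by edgeR, 6 of them higher in the libraries labelled female. Of the 18, 10 were highest in control 6, against 19.2% of all genes at 1 CPM or more in all 4 libraries. Control 6 was also highest for 10 of 11 telencephalic and all 13 choroid plexus genes, and their part in this difference was not tested. None of the 8 striatal, 10 microglial or 10 vascular genes had an unadjusted P value under 0.05 by edgeR. Oprm1 averaged 30.7 CPM in the male libraries and 19.6 CPM in the libraries labelled female, a log2 difference of -0.64 ± 0.19 (SE) that did not pass (adjusted P value 0.914 by edgeR with Benjamini-Hochberg adjustment). With all 8 libraries in the fit this difference was -0.19 ± 0.18 (SE), and without control 5 it was -0.45 ± 0.24.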

How the data were processed

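Whole-read counts per RefSeq transcript in 8 libraries were deposited by the authors, who per the labels used genome build mm10 and DESeq2; the study's methods describe Salmon and tximport for a gene-level matrix, and which tool and strand setting made this table of whole counts per transcript is not given in the sources used here. Libraries came from a directional kit read as 50-base pairs. Of 24488 transcripts, the one with the highest total over all 8 libraries was kept for each of 18939 genes. Counts were scaled to CPM with TMM factors, and divided by the length of the matching GENCODE M21 transcript (18834 genes) for CPM per kb. Tests between sexes used edgeR 4.0.16 (quasi-likelihood, no filter beyond a count above 0) with DESeq2 1.42.0 and limma 3.58.1 as alternatives, and were tested on simulated data, in which the share of false calls was above the threshold with each tool. Spread used log2 CPM with a prior count of 2 over genes with a mean of 10 CPM. 529 listed genes were looked up, of which 522 were in the table.

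The named genes are the 15 highest by CPM per kb, the 3 leading members of each list or subclass with members at 0 counts, Oprm1, Rpl10a, the 10 most variable genes, and Xist with the Y-linked genes; further members of the lists are given for context and were chosen after their values were seen. The libraries, lists and tests were chosen with earlier results of these data known. Morphine libraries were used to choose transcripts, to look up an order again and in 1 alternative fit of sex. Every control library held at least 37081348 counts, so counting error is small for genes at 10 CPM or more and large for those well below 1 CPM. Some genes that meet this rule are not reported here.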

Additional observations from a re-analysis of the deposited data

Results flagged for a closer look

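Of 183 named genes, 16 (8.74%) had 1 control library farther from the other 3 than Dixon's 95% critical value allows. Chance flags about 1 in 20 groups of unselected, independent values, a rate that cannot be read against these genes, since some were named for their spread and all share the same 4 libraries. In control 2, the high values were Slc32a1 (102 CPM), Slc6a5 (0.87 CPM), Tph2 (2.55 CPM), Cpe (468 CPM), Scg2 (266 CPM), Kcnj9 (102 CPM), Grm4 (72.3 CPM), Drd1a (24.0 CPM), Htr2c (102 CPM), Cacna1g (157 CPM) and Kcnk3 (46.3 CPM), and the low value was Aldoa (1820 CPM). The other 3 libraries lay between 50.8 and 52.4 CPM for Slc32a1 and between 116 and 125 CPM for Scg2. In control 5, Th (70.7 CPM) and Rgs4 (634 CPM) were high and Fos (73.8 CPM) was low. In control 1, Calm3 (2280 CPM) was low. Of the 16 genes, 12 pointed to control 2.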

How the results depend on the processing

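No paired analysis was possible because the libraries labelled female and the male control libraries share no replicate number. The count of genes called between them by sex was 0 with TMM factors, RLE size factors, limma-voom, filterByExpr and counts summed over transcripts. It was 8 with upper-quartile factors, 58 with DESeq2 and 1 (Xist) with all 8 libraries in the fit, and it ranged from 6 to 100 with 1 control library left out, where the lone library of a sex was assumed to vary like the others; the cause was not tested. The number of genes at 1 CPM or more in all 4 libraries lay between 12142 and 12539, with 13175 at a minimum of 0.5 CPM and 10219 at 5 CPM, and that of genes holding 50% of the counts between 739 and 1048, over all alternatives tried. Levels of all 183 named genes moved by less than 1 SD with RLE size factors or no factor; Vamp2 moved by more without control 5, and 127 did so when counts were summed over transcripts, which adds reads that several transcripts share. The leading gene of 66 lists and subclasses was the same for 63 with the longest transcript (chosen after seeing the data), 54 with summed transcripts and 48 by CPM. With 4 libraries, low levels near 1 CPM and orders within overlapping ranges are the limit.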
